A study of Mus musculus with 12 samples.

Results

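The 9 genes described here encode enzymes of the tricarboxylic acid cycle: Cs, Idh1, Idh2, Idh3a, Ogdh, Suclg1, Sucla2, Fh1 and Mdh2. They were picked by gene name from a table of raw read counts that lists 54446 genes. The list of names was drawn up with earlier results of these data known. All 9 were found, and all 9 were among the 14724 genes that passed the filter on low counts. The RNA came from NIH3T3 cells, an established line of mouse embryo fibroblasts. The wild type was compared with a derived line, dN-VEGF, in which Cas9 had removed the sequence that encodes N-VEGF, an N-terminal extension of the VEGF-A protein translated from an upstream start in the Vegfa transcript. Each line was kept in normoxia (air with carbon dioxide) or for 16 h in hypoxia, below 0.2% oxygen, which gave 4 groups of 3 samples. In the methods 2 clones are said to have been carried on, and which of them was sequenced is not given in the sources used here. A line effect therefore cannot be told apart from a clone effect. The labels do not say whether the 3 samples of a group came from separate cultures, and the methods speak of repeats only for experiments in general. The p-values then measure only the spread between these samples, which may be technical.

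The cycle runs in the mitochondrial matrix. It joins acetyl-CoA to oxaloacetate, oxidises the product stepwise, and passes the electrons to the respiratory chain, whose final acceptor is oxygen. In low oxygen many cell types send less pyruvate into the cycle and more to lactate: the hypoxia-inducible factors raise Pdk1, a kinase that inhibits pyruvate dehydrogenase, and Ldha, a subunit of lactate dehydrogenase.

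Total counts per sample ranged from 30519052 to 43056690. All 8 fibroblast markers examined were counted in every library, and their level moved with the groups. They summed to 16940 to 24110 CPM in wild-type normoxia, 26970 to 29190 in wild-type hypoxia, 20290 to 21470 in dN-VEGF normoxia and 40700 to 42800 CPM in dN-VEGF hypoxia. In hypoxia 1 was called higher and 3 lower in the wild type, against 4 higher and 2 lower in dN-VEGF cells, and 1 higher and 6 lower against 4 higher and 3 lower without the library labelled wild-type normoxia 2, described next. The epithelial marker Epcam had 0 counts throughout, and the immune marker Ptprc had at most 2 and the endothelial marker Kdr at most 1. Other markers of those types were counted: the endothelial Cdh5 had 56 to 795 counts per library, the immune Cd68 120 to 262 and the epithelial Cdh1 12 to 99. Hypoxia raised Cdh5 2.77-fold in wild-type and 9.57-fold in dN-VEGF cells (edgeR adjusted p = 0.021 and 0.00012; 4.44-fold in wild-type cells without that library) and Cd68 1.52-fold and 1.49-fold (adjusted p = 0.011 and 0.0097). The endothelial list summed to 1.811 to 4.226 CPM in wild-type normoxia, 5.912 to 8.048 in wild-type hypoxia, 1.96 to 4.193 in dN-VEGF normoxia and 20.27 to 25.14 CPM in dN-VEGF hypoxia. In the same order the immune list summed to 4.046 to 4.611, 5.944 to 6.855, 3.079 to 3.984 and 4.632 to 5.918 CPM, and the epithelial list to 0.6966 to 2.419, 0.9589 to 1.3, 0.3553 to 1.103 and 0.4386 to 0.5213 CPM. Their part in the results was not tested. The 10 genes listed as hypoxia-induced controls were higher in hypoxia in both lines, with a median log2 change of 3.21 in wild-type cells and 3.75 in dN-VEGF cells.

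Vegfa, the edited gene, was read as counts over the whole gene, so its level tests the deletion only in part. It stood at 86.2, 39.4 and 82.6 CPM (read counts set to a common library size, after scaling by the trimmed mean of M-values, TMM) in wild-type normoxia replicates 1, 2 and 3. In dN-VEGF normoxia the values were 37.3, 34.2 and 35.5 CPM. Replicate 2 of wild-type normoxia thus lay near the dN-VEGF samples and not near the other two of its own group. Over all tested genes it went against its label too: its log2 CPM correlated at 0.956 to 0.957 with the other wild-type normoxia libraries and at 0.975 to 0.984 with those of dN-VEGF normoxia. Replicate 2 of dN-VEGF normoxia also stood apart, by less: it correlated at 0.986 with each of the others of its group, which correlated at 0.996 with each other, and at 0.984 with replicate 2 of wild-type normoxia. Replicates in hypoxia correlated at 0.994 or more. The library is called the library labelled wild-type normoxia 2 below, and results that rest on it are given with and without it, and without both normoxia libraries numbered 2 where that changed a call or a size further.

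Hypoxia lowered these enzymes in dN-VEGF cells, while in wild-type cells only some of them passed the test. In dN-VEGF cells 9 of 9 fell, by 0.49 (Suclg1) to 1.68 (Idh3a) on the log2 scale with a median of -0.90. In wild-type cells 4 fell, which were Cs, Idh2, Idh3a and Ogdh, and the median over all 9 was -0.42. No member rose in either line. Calls rest on the quasi-likelihood test of edgeR, with 0.05 as the limit of the adjusted p (Benjamini-Hochberg over all tested genes) and no limit on the fold. Whether the lines differed in their response was tested separately. Of all tested genes, 18.3% were lower and 18.2% higher in hypoxia in wild-type cells, and 26.4% lower and 26.9% higher in dN-VEGF cells. The median log2 change of all tested genes was -0.07 and -0.01. Without the library labelled wild-type normoxia 2, 5 members fell in wild-type cells and 9 in dN-VEGF cells, where 26.9% and 34.3% of all tested genes were lower. In bulk RNA, fewer cells and less RNA per cell cannot be told apart.

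**Figure D1:**
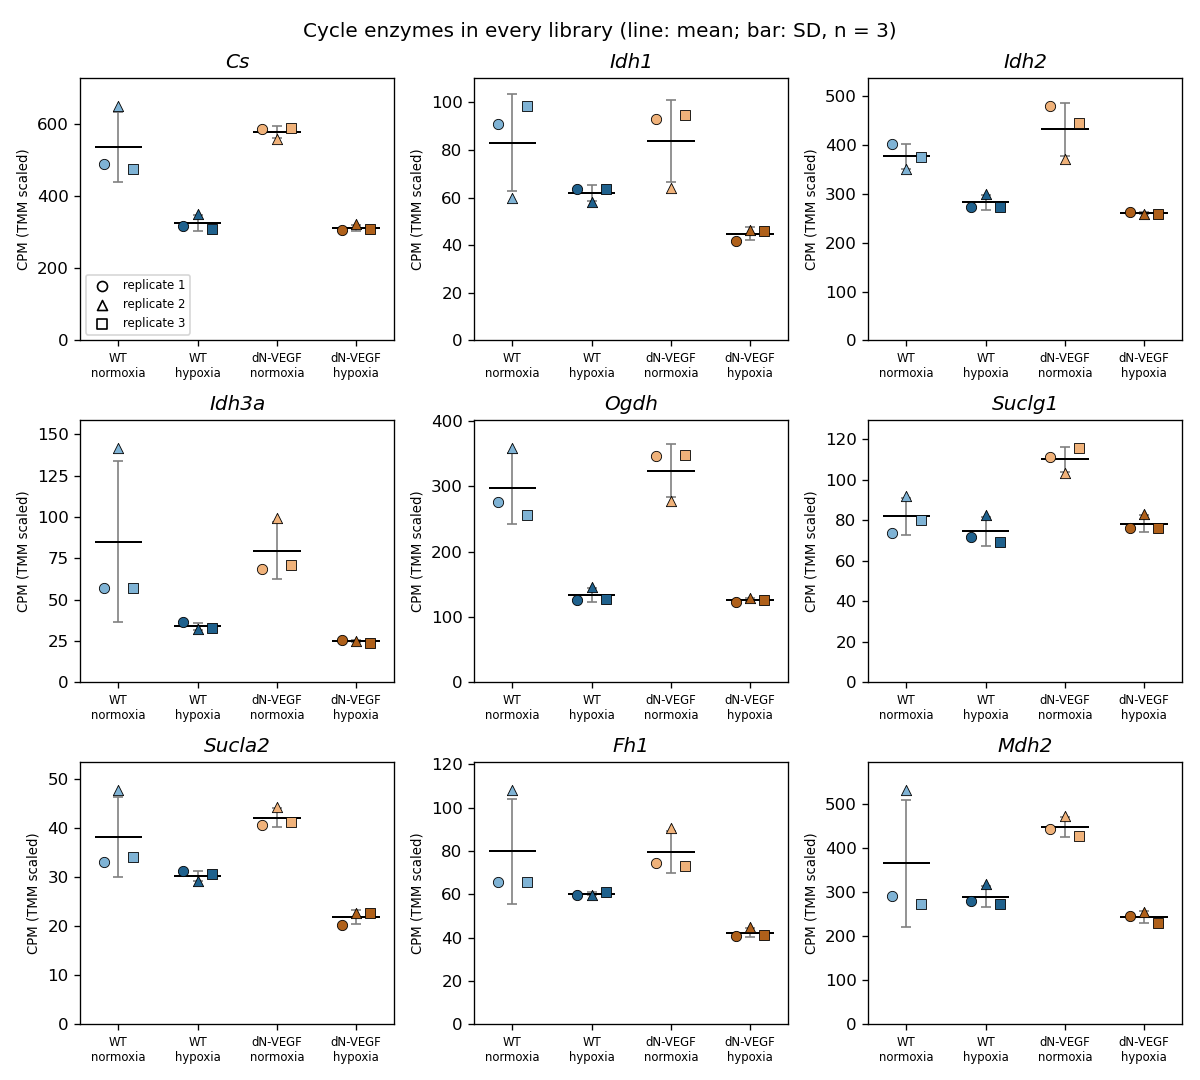
Each panel shows 1 enzyme gene in CPM (vertical axis, from 0) for the 12 libraries in 4 groups. Points are libraries, shaped by replicate number, with a line at the group mean and a bar for the SD (n = 3). The triangle of wild-type normoxia lies far above its group in Idh3a, Fh1 and Mdh2, and the dN-VEGF hypoxia points lie below all dN-VEGF normoxia points in every panel. In dN-VEGF cells 35.6% of all tested genes likewise did not overlap with hypoxia lower, and 34.9% with hypoxia higher.

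Since members moved together, their promoters were searched for the core letters of the hypoxia response element, ACGTG or GCGTG on either strand. The RefSeq promoter windows (GRCm38.p6, from 250 bases before to 50 after an annotated start) matched 8 of the 9 members with 14 windows, and Idh3a had no entry. The letters stood in a window of 6 members (Idh1, Idh2, Ogdh, Suclg1, Fh1 and Mdh2), against 46.7% of the 27025 genes with a window and 9 of the 9 hypoxia-induced controls with an entry. Counted by window, 12 of the 14 member windows (85.7%) and 43.8% of all 32851 windows held them. Ogdh had more of these windows than any other member, several of them overlapping, and all of its windows held the letters. The share by window therefore leans on that gene. They were not found in the windows of Cs and Sucla2. The stretches below hold the match nearest to a start and wholly before it, 5′ to 3′ on the strand of the gene, with the core in capitals. They are shown for the 5 members that have one.
Idh1 (chr1:65179260-65179288, minus strand): ggaatctccgcgGCGTGgcagtcccatcc
Idh2 (chr7:80115407-80115435, minus strand): gctcctgccctgGCGTGgacccgccttct
Ogdh (chr11:6291545-6291573, plus strand): gtgacgtcacgtCACGCccacagcctgtc
Suclg1 (chr6:73248385-73248413, plus strand): ttcccacaacacCACGCgccggccgggcc
Mdh2 (chr5:135778540-135778568, plus strand): gccgggtctaggGCGTGctagacaaggaa
CACGC in Ogdh and Suclg1 is GCGTG read on the other strand. The lower-case cacgt just before it in Ogdh is a further match, ACGTG read on the other strand. The stretch of Idh1 belongs to the second of its 2 listed starts. The stretches of Idh1, Suclg1 and Mdh2 lie before the RefSeq start used but inside the gene spans given below, which follow another annotation, and those of Idh2 and Ogdh lie outside them. A match is a description of letters and not a site shown to be bound. Of the other motifs searched on both strands, CCAAT was in windows of 5 members (Cs, Idh1, Idh2, Ogdh and Fh1) and of 41.1% of all genes. AAGGTCA, the half-site of estrogen-related receptors, was in 1 member (Ogdh) and 5.4% of genes, and GCGCATGC, the core of the NRF1 motif, in 1 member (Ogdh) and 3.0%.

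The enzymes differed widely in level. Per kilobase of exon (GENCODE M21 lengths), mean levels over the 12 samples ran from 131 CPM per kb for Idh2 and 94.3 for Mdh2 to 11.03 for Idh3a and 8.29 for Sucla2. Between them stood Cs at 75.8, Ogdh at 40.3, Idh1 at 24.7, Fh1 at 19.3 and Suclg1 at 18.6 CPM per kb. Idh2 was above 97.9% of the 14719 tested genes with a length, and Sucla2 above 68.4%. Together the 9 genes took 0.207% to 0.237% of all counts in wild-type normoxia and 0.219% to 0.25% in dN-VEGF normoxia. In hypoxia they took 0.121% to 0.132% in wild-type and 0.0947% to 0.098% in dN-VEGF cells, so the normoxic and hypoxic ranges did not overlap in either line.

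Citrate synthase, which condenses acetyl-CoA with oxaloacetate in the entry step, is encoded by Cs (ENSMUSG00000005683, chr10:128337734-128362479, GRCm38, plus strand). Its level was 488, 648 and 475 CPM in wild-type normoxia and 316, 352 and 309 CPM in wild-type hypoxia. The dN-VEGF samples gave 587, 558 and 588 CPM in normoxia and 305, 322 and 308 CPM in hypoxia. Every hypoxic sample lay below every normoxic one, and the hypoxic samples of the lines overlapped. The fall was 1.65-fold in wild-type cells (log2 -0.72 ± 0.12 SE, edgeR adjusted p = 0.00069) and 1.85-fold in dN-VEGF cells (-0.89 ± 0.12, adjusted p = 9.2e-05).

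Isocitrate is oxidised by 3 kinds of enzyme. Idh3a encodes the catalytic alpha subunit of the NAD-dependent mitochondrial enzyme, the one usually drawn in the cycle. Idh2 encodes the NADP-dependent mitochondrial enzyme and Idh1 its cytosolic counterpart, and both also run in reverse, from 2-oxoglutarate to isocitrate.

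Idh3a (ENSMUSG00000032279, chr9:54586334-54604661, plus strand) had the largest log2 change of the 9 members in both lines with all libraries. It stood at 57.1, 142 and 57.0 CPM in wild-type normoxia and at 36.3, 32.4 and 32.9 CPM in hypoxia. In dN-VEGF cells it stood at 68.8, 99.3 and 71.1 CPM in normoxia and at 25.6, 25.0 and 24.1 CPM in hypoxia. Replicate 2 was the highest of its group in both normoxic groups, and no hypoxic sample reached a normoxic one. Idh3a fell 2.51-fold in wild-type cells (log2 -1.33 ± 0.31 SE, edgeR adjusted p = 0.0059) and 3.2-fold in dN-VEGF cells (-1.68 ± 0.31, adjusted p = 0.00094). Without the library labelled wild-type normoxia 2 the wild-type fall was 1.68-fold (-0.74 ± 0.13, adjusted p = 0.00036), smaller than that of Ogdh (-0.99).

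Idh2 (ENSMUSG00000030541, chr7:80094846-80115392, minus strand) was the most abundant member per kilobase. It was read at 403, 352 and 375 CPM in wild-type normoxia, at 273, 300 and 274 CPM in wild-type hypoxia, at 479, 372 and 446 CPM in dN-VEGF normoxia and at 263, 259 and 259 CPM in dN-VEGF hypoxia. The groups did not overlap between oxygen conditions. Idh2 shares part of its span with Gm45203, and Cs with the small nucleolar RNA gene Gm23182, on the same strand, and how reads there were assigned is not given in the sources used here. Idh2 fell 1.33-fold in wild-type cells (log2 -0.42 ± 0.10 SE, edgeR adjusted p = 0.0085) and 1.66-fold in dN-VEGF cells (-0.73 ± 0.10, adjusted p = 0.00014).

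Idh1 (ENSMUSG00000025950, chr1:65158616-65186500, minus strand) was less abundant, at 91.0, 59.9 and 98.3 CPM in wild-type normoxia and 63.8, 58.0 and 63.7 CPM in wild-type hypoxia. Apart from the library labelled wild-type normoxia 2, the lowest of its group, the normoxic samples lay above the hypoxic ones. In dN-VEGF cells Idh1 was 93.0, 64.0 and 94.6 CPM in normoxia, again lowest in replicate 2, and 41.9, 46.6 and 46.2 CPM in hypoxia. The fall passed the test in dN-VEGF cells (1.87-fold, log2 -0.90 ± 0.19 SE, edgeR adjusted p = 0.0021), while the wild-type value was -0.43 ± 0.19 (adjusted p = 0.098). Without that library Idh1 fell 1.52-fold in wild-type cells (-0.61 ± 0.13, adjusted p = 0.002).

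The balance of the NADP-dependent enzymes was measured as the ratio of Idh2 to Idh1 reads in each library, which does not depend on library scaling. Its log2 mean was 2.21 ± 0.32 (SD, n = 3) in wild-type normoxia, 2.19 ± 0.16 in wild-type hypoxia, 2.38 ± 0.15 in dN-VEGF normoxia and 2.54 ± 0.10 in dN-VEGF hypoxia. Hypoxia moved it by 0.07 (exact permutation test within lines, two-sided, p = 0.545, adjusted over 4 ratio tests 0.727). It was 0.26 higher in dN-VEGF than in wild-type cells (exact permutation test within oxygen conditions, p = 0.055, adjusted 0.22), where the smallest p that 400 regroupings allow is 0.005. Without the library labelled wild-type normoxia 2 this difference was 0.34, and without both normoxia libraries numbered 2 it was 0.30 (adjusted p = 0.04 each, exact permutation). The change with hypoxia was 0.19 without both (adjusted p = 0.08, exact permutation).

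Ogdh (ENSMUSG00000020456, chr11:6291633-6356642, plus strand) encodes the E1 subunit of the 2-oxoglutarate dehydrogenase complex, which turns 2-oxoglutarate into succinyl-CoA. It was read at 275, 358 and 257 CPM in wild-type normoxia and at 126, 146 and 128 CPM in wild-type hypoxia. In dN-VEGF cells it was read at 346, 277 and 347 CPM in normoxia and at 122, 129 and 126 CPM in hypoxia. All 6 hypoxic samples lay below all 6 normoxic ones by a wide gap. The fall was 2.22-fold in wild-type cells (log2 -1.15 ± 0.14 SE, edgeR adjusted p = 7.6e-05) and 2.57-fold in dN-VEGF cells (-1.36 ± 0.14, adjusted p = 1.2e-05). Ogdh and Idh3a were the only members whose fall was called in both lines with a fold of at least 2. With the library labelled wild-type normoxia 2 left out, no member reached that fold in both, since the wild-type falls were then 1.98-fold for Ogdh and 1.68-fold for Idh3a.

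Succinyl-CoA ligase makes succinate and is the step of the cycle that forms a nucleoside triphosphate directly. Its alpha subunit, encoded by Suclg1, pairs with the beta subunit of Sucla2 in the ADP-dependent form and with that of Suclg2 in the GDP-dependent form.

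Suclg1 (ENSMUSG00000052738, chr6:73248382-73276911, plus strand) was at 73.8, 91.8 and 80.3 CPM in wild-type normoxia and 71.6, 82.5 and 69.1 CPM in wild-type hypoxia, with overlapping groups (log2 -0.14 ± 0.11 SE, edgeR adjusted p = 0.33). In dN-VEGF cells it was at 111, 103 and 115 CPM in normoxia and 75.9, 82.9 and 75.9 CPM in hypoxia. The hypoxic samples of the lines overlapped, and the dN-VEGF normoxia samples stood above all others. Suclg1 fell 1.4-fold in dN-VEGF cells (-0.49 ± 0.11, adjusted p = 0.0025), the smallest fall of the 9 there.

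Sucla2 (ENSMUSG00000022110, chr14:73525319-73596142, plus strand) was the least abundant member per kilobase. It stood at 32.9, 47.6 and 34.0 CPM in wild-type normoxia and 31.1, 29.1 and 30.5 CPM in wild-type hypoxia. For dN-VEGF cells the levels were 40.6, 44.2 and 41.2 CPM in normoxia and 20.3, 22.6 and 22.7 CPM in hypoxia, below every other sample. Sucla2 fell 1.92-fold in dN-VEGF cells (log2 -0.94 ± 0.14 SE, edgeR adjusted p = 0.00016). The wild-type value was -0.34 ± 0.13 (adjusted p = 0.071), and -0.14 ± 0.08 without the library labelled wild-type normoxia 2. Whether reads were counted by strand is not given in the sources used here, so the counts of Sucla2 may hold reads from the opposite strand.

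Suclg2, the GDP-dependent partner, fell in both lines. Its levels were 92.8, 92.6 and 92.0 CPM in wild-type normoxia, 57.8, 55.2 and 57.7 CPM in wild-type hypoxia, 87.8, 83.4 and 92.4 CPM in dN-VEGF normoxia and 44.6, 47.0 and 48.5 CPM in dN-VEGF hypoxia. The library labelled wild-type normoxia 2 did not stand apart for this gene. The fall was 1.63-fold in wild-type cells (log2 -0.70 ± 0.08 SE, edgeR adjusted p = 4e-05) and 1.88-fold in dN-VEGF cells (-0.91 ± 0.08, adjusted p = 3e-06). The log2 ratio of Suclg2 to Sucla2 reads averaged 1.30 ± 0.29 (SD, n = 3) in wild-type normoxia and 0.91 ± 0.02 in wild-type hypoxia, against 1.06 ± 0.13 and 1.096 ± 0.041 in dN-VEGF cells. Hypoxia moved the ratio by -0.39 in wild-type and 0.03 in dN-VEGF cells, and by -0.18 over both lines (exact permutation test, two-sided, p = 0.21, adjusted 0.42). Without both normoxia libraries numbered 2 the change over both lines was -0.30 and passed the test (adjusted p = 0.04, exact permutation). Between the lines it differed by -0.02 (exact permutation test, p = 0.84, adjusted 0.84). In single libraries of wild-type normoxia the log2 ratio was 1.495, 0.96 and 1.44, with replicate 2 near the level of the hypoxic samples.

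**Figure D2:**
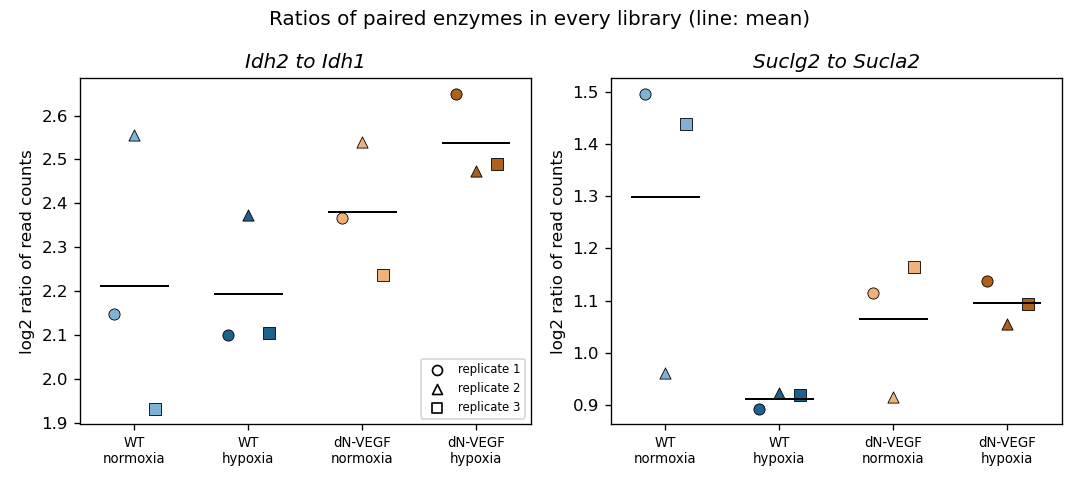
Log2 ratio of read counts of Idh2 to Idh1 and of Suclg2 to Sucla2 (vertical axes, not from 0) in the 12 libraries, by group on the horizontal axis; points are libraries and lines group means. Wild-type normoxia replicate 2 lies at the top of its group for Idh2 to Idh1 and at the bottom, at 0.96, for Suclg2 to Sucla2.

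Fh1 (ENSMUSG00000026526, chr1:175600374-175625635, minus strand) encodes fumarate hydratase, which adds water to fumarate to make malate. Its level was 66.0, 108 and 65.9 CPM in wild-type normoxia and 59.9, 59.9 and 61.3 CPM in wild-type hypoxia. The dN-VEGF samples gave 74.6, 90.8 and 73.2 CPM in normoxia and 41.0, 44.8 and 41.4 CPM in hypoxia. The hypoxic samples of the lines were separate, with dN-VEGF lower. Fh1 fell 1.88-fold in dN-VEGF cells (log2 -0.91 ± 0.18 SE, edgeR adjusted p = 0.0012), and the wild-type value was -0.41 ± 0.17 (adjusted p = 0.092). Without the library labelled wild-type normoxia 2 the wild-type value was -0.12 ± 0.09 (adjusted p = 0.29). Fh1 overlaps Kmo on the opposite strand, so the same uncertainty about strand holds.

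Mdh2 (ENSMUSG00000019179, chr5:135778480-135790398, plus strand) encodes mitochondrial malate dehydrogenase, which regenerates oxaloacetate and closes the cycle. It was read at 291, 530 and 274 CPM in wild-type normoxia and at 280, 317 and 272 CPM in wild-type hypoxia. The dN-VEGF samples gave 442, 472 and 426 CPM in normoxia and 245, 255 and 230 CPM in hypoxia. The library labelled wild-type normoxia 2 was above every dN-VEGF sample, while the other two wild-type normoxia samples lay within the range of wild-type hypoxia. Mdh2 fell 1.84-fold in dN-VEGF cells (log2 -0.88 ± 0.21 SE, edgeR adjusted p = 0.0045). The wild-type value was -0.33 ± 0.21 (adjusted p = 0.23), and 0.04 ± 0.08 (adjusted p = 0.69) without that library.

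**Figure D3:**
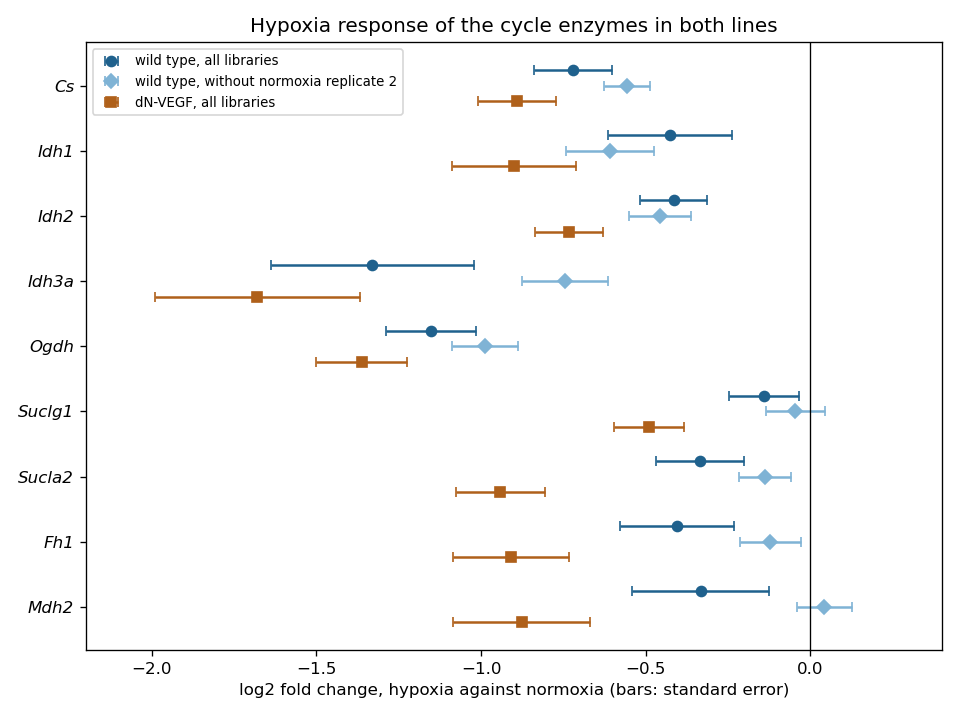
Log2 fold change of hypoxia against normoxia (horizontal axis) for the 9 genes, with bars of 1 standard error from edgeR, in wild-type cells with all libraries, in wild-type cells without normoxia replicate 2, and in dN-VEGF cells. The dN-VEGF values lie left of the wild-type ones for every gene, and the wild-type value of Mdh2 moves from -0.33 to 0.04 when the library is left out.

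Whether the response differed between the lines was tested as the interaction of line and oxygen (the dN-VEGF change minus the wild-type change). All 9 members had values below 0, from -0.17 (Cs) to -0.61 (Sucla2), with a median of -0.35, but 0 passed edgeR's test. Of all tested genes 2.21% were called higher and 1.15% lower. At an unadjusted p below 0.05 there were 2 members, Suclg1 and Sucla2, and 21% of all tested genes. DESeq2 called 1 member, Sucla2 (edgeR: -0.61 ± 0.19 SE, adjusted p = 0.1), and 3.47% of the 13958 genes it gave an adjusted p as lower. The call depended on the library labelled wild-type normoxia 2: without it 7 members were called lower, all except Idh1 and Idh2, where 23% of all tested genes were called lower and 21.4% higher. In that fit the values of the called members ran from -0.34 (Cs) to -0.94 (Idh3a), with Mdh2 at -0.93 and Sucla2 at -0.81. Without both normoxia libraries numbered 2 all 9 were called lower, against 27% of all tested genes, Idh1 at -0.46 and Idh2 at -0.38 included. The 9 values come from the same libraries and are not separate pieces of evidence.

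In normoxia the lines differed at 1 member. Suclg1 was 1.34-fold higher in dN-VEGF cells, with no overlap between the groups (log2 0.42 ± 0.11 SE, edgeR adjusted p = 0.049), where 1.39% of all tested genes were called higher and 2.97% lower. The median over the 9 was 0.13. The call was lost when any 1 of the libraries except that labelled wild-type normoxia 2 was left out (adjusted p from 0.051 to 0.18). In the 6 normoxia samples alone, with the replicate number as a block, Suclg1 had the same size of difference and no call (0.43, adjusted p = 0.25). Without the library labelled wild-type normoxia 2, 7 members were called higher in dN-VEGF cells, against 25.7% of all tested genes. These were led by Mdh2 (0.68 ± 0.08, adjusted p = 5.6e-05) and Suclg1 (0.53 ± 0.09, adjusted p = 0.00049), and the exceptions were Idh1 (-0.16) and Idh2 (0.16). Idh3a and Fh1 turned from -0.10 and -0.01 with all libraries to 0.50 and 0.28 without it. Without both normoxia libraries numbered 2, 8 members were called higher, against 27.8% of all tested genes: Idh2 then passed too (0.26 ± 0.06, edgeR adjusted p = 0.0018), Idh1 was at -0.003, and Idh3a and Fh1 were at 0.305 and 0.176.

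In hypoxia 1 member differed between the lines as well. Sucla2 was 1.38-fold lower in dN-VEGF cells (log2 -0.47 ± 0.13 SE, edgeR adjusted p = 0.032), where 9.36% of all tested genes were called lower and 10.8% higher. The call was lost without any 1 of the 6 hypoxia libraries or without dN-VEGF normoxia replicate 1 or 3 (adjusted p from 0.052 to 0.13). The hypoxic groups did not overlap for 6 members, all with dN-VEGF lower: Idh1, Idh2, Idh3a, Sucla2, Fh1 and Mdh2. Of all tested genes 30.1% did not overlap with dN-VEGF lower and 29.7% with dN-VEGF higher. Beside Sucla2, the largest of these differences were Fh1 (-0.51 ± 0.18, adjusted p = 0.062) and Idh1 (-0.46 ± 0.19, adjusted p = 0.11), neither called. The library labelled wild-type normoxia 2 is not among the samples compared but adds to the shared estimate of spread. Without it 5 members were called lower, the 6 named less Idh2, against 21.2% of all tested genes. A fit to the 6 hypoxia samples alone also called 5, against 29.1% of genes.

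**Figure D4:**
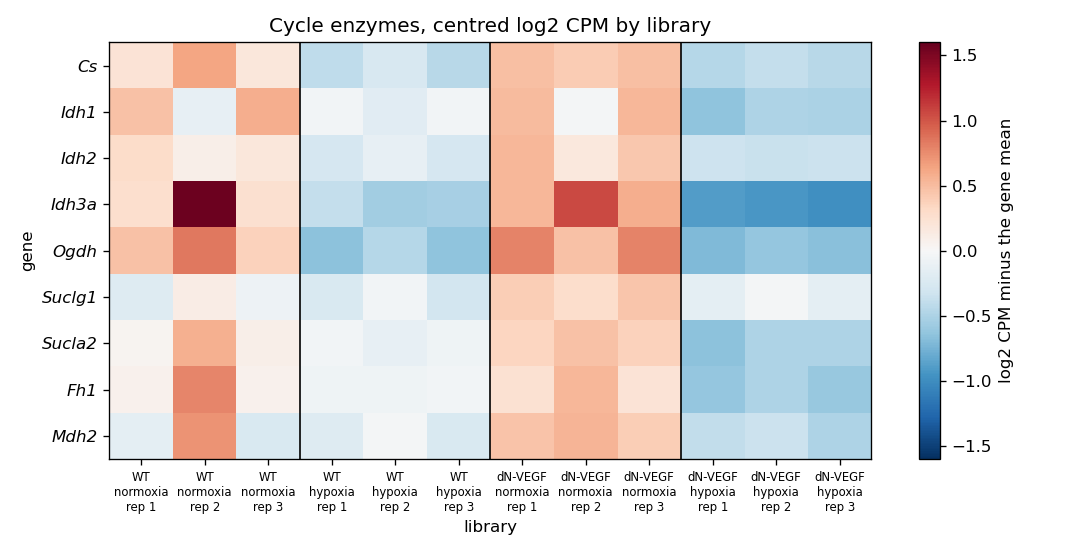
Log2 CPM of each gene (rows) in each library (columns, by group) minus the gene's mean over the 12 libraries, as colour. The dN-VEGF hypoxia columns are below the mean for every gene, and wild-type normoxia replicate 2 reaches 1.57 for Idh3a while it is below the mean for Idh1.

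The members varied together across the 12 libraries. Their log2 CPM correlated for all 36 pairs at 0.413 to 0.992 (Pearson), with a median of 0.815. Around the group means 24 of the 36 correlations were positive, with a range from -0.904 to 0.976. The pairs share libraries and scaling, so these values are descriptions. Among 8522 genes with a mean of at least 10 CPM, the gene most like each member over the 12 samples was Tdp1 for both Cs (r = 0.995) and Ogdh (0.997), Ftsj3 for Idh3a (0.996), Nr2f1 for Idh2 (0.984) and Decr1 for Idh1 (0.976). It was Arhgef1 for Suclg1 (0.959), Endod1 for Sucla2 (0.995), Snx7 for Fh1 (0.997) and Slc25a10, the mitochondrial dicarboxylate carrier, for Mdh2 (0.993).

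Of the 10 other subunits of the cycle that were listed, hypoxia lowered 4 in wild-type and 6 in dN-VEGF cells, and no subunit was called higher in either line. The median log2 change over the 10 was -0.29 and -0.46. Beside Suclg2, the subunits that fell included Sdha in wild-type cells (log2 -0.35 ± 0.08 SE, edgeR adjusted p = 0.005), the flavoprotein of succinate dehydrogenase. In dN-VEGF cells they included Sdhb (-0.83 ± 0.17, adjusted p = 0.0015), its iron-sulphur subunit. Idh3b and Idh3g, which encode the partners of Idh3a in the same enzyme and are named for that after their values were seen, were not called in either line (Idh3b -0.06 and -0.07, Idh3g -0.01 and -0.10). Without both normoxia libraries numbered 2 they were called lower in dN-VEGF cells, where 36% of all tested genes were lower. The values there were -0.15 for Idh3b (edgeR adjusted p = 0.023) and -0.16 for Idh3g (adjusted p = 0.017). Neither was called in wild-type cells in that fit (-0.017 and 0.037). Without the library labelled wild-type normoxia 2, 4 fell and 1 rose in wild-type cells, and 8 fell in dN-VEGF cells, of which Sdhc (-0.165) was at an adjusted p that rounds to the limit of 0.05. The gene that rose was Sdhd (0.32, adjusted p = 0.042), and both are named after their values were seen. Between the lines, Suclg2 was lower in dN-VEGF hypoxia (-0.28 ± 0.08, edgeR adjusted p = 0.023).

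Genes that feed or drain the cycle moved both ways. Of 16 listed, 15 were tested, and hypoxia raised 3 and lowered 4 of them in wild-type cells, against 6 raised and 6 lowered in dN-VEGF cells. Me2, mitochondrial malic enzyme, which turns malate into pyruvate, rose from 79.3 ± 62.3 to 806 ± 9.96 CPM (SD, n = 3) in wild-type cells and from 81.6 ± 13.8 to 772 ± 10.3 CPM in dN-VEGF cells (log2 3.35 and 3.24, edgeR adjusted p = 0.00013 and 8.6e-05). Its wild-type normoxia values ran from 43.3 to 151.2 CPM, and without the library labelled wild-type normoxia 2 the wild-type rise was 18.7-fold (4.22 ± 0.13, edgeR adjusted p = 5.2e-11). That fit tested 16 of the list and called 4 higher and 4 lower in hypoxia in the wild type, against 7 higher and 6 lower in dN-VEGF cells. In wild-type cells Slc25a11, the 2-oxoglutarate carrier, rose by 0.56 (edgeR adjusted p = 0.00035). In dN-VEGF cells the lowest adjusted p belonged to Acly (-0.94 ± 0.10, adjusted p = 1.8e-05), the cytosolic enzyme that splits citrate, and Aco1 (-1.23 ± 0.15, adjusted p = 4e-05), cytosolic aconitase. Acly was also lower in dN-VEGF than in wild-type hypoxia (-0.66 ± 0.10, adjusted p = 0.0016), and Got1, the cytosolic aspartate aminotransferase, was higher (0.58 ± 0.17, adjusted p = 0.036).

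Pdk1 and Ldha, at the branch between cycle and lactate, rose in both lines. Pdk1 went from between 43.9 and 54.5 CPM to between 550 and 582 CPM in wild-type cells (11.3-fold, edgeR adjusted p = 1.7e-07) and rose 10.9-fold in dN-VEGF cells (adjusted p = 8.2e-08). Ldha rose 5.61-fold and 4.54-fold (adjusted p = 0.00031 and 4e-04). In wild-type normoxia Ldha was 471, 1376 and 454 CPM, with replicate 2 near the dN-VEGF normoxia values of 1175, 1390 and 1185 CPM. Without that library Ldha rose 9.34-fold in wild-type cells (edgeR adjusted p = 8.4e-11).

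Among the listed enzymes of 2-hydroxyglutarate, a side product of 2-oxoglutarate, Adhfe1, a hydroxyacid-oxoacid transhydrogenase, fell 2.3-fold in dN-VEGF cells, from 1.76 ± 0.29 to 0.762 ± 0.084 CPM (SD, n = 3, edgeR adjusted p = 0.0019). In wild-type cells it stood at 1.04 ± 0.24 CPM in normoxia and 1.05 ± 0.24 CPM in hypoxia.

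The falls were not shared by all genes of the mitochondrion. Of 19 household genes (import, chaperones, proteases and carriers), hypoxia raised 3 and lowered 1 in the wild type, against 3 raised and 6 lowered in dN-VEGF cells, with medians of -0.12 and -0.29. In the fit that leaves out the library labelled wild-type normoxia 2, the counts were 8 raised and 1 lowered in the wild type, against 3 raised and 12 lowered in dN-VEGF cells. The lowest adjusted p in both lines belonged to Lonp1, the matrix protease, Vdac1, the outer membrane channel, and Hspa9, the matrix Hsp70. Lonp1 rose 3.81-fold in wild-type and 4.62-fold in dN-VEGF cells (edgeR adjusted p = 1.3e-08 and 3.7e-09), Vdac1 2.81-fold and 5.03-fold, and Hspa9 1.64-fold and 2.12-fold. Vdac1 was also higher in dN-VEGF than in wild-type hypoxia (log2 0.97 ± 0.17 SE, adjusted p = 0.0027).

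Of 7 regulators of mitochondrial genes, 1 rose and 3 fell in each line, and without the library labelled wild-type normoxia 2, 2 rose and 2 fell in the wild type. Ppargc1b, a coactivator of the genes of respiration, went from 5.98 ± 1.42 to 1.23 ± 0.19 CPM (SD, n = 3) in wild-type cells and from 6.13 ± 0.32 to 1.14 ± 0.11 CPM in dN-VEGF cells (log2 -2.28 and -2.43, edgeR adjusted p = 7.8e-06 and 2.8e-06). Myc rose by 0.66 and 0.67 (adjusted p = 6e-04 and 3e-04). Ppargc1a, a relative of Ppargc1b, fell by 3.81 in wild-type cells (adjusted p = 0.00082) from a mean of only 1.09 CPM, and Pprc1, the third member of that family, fell by 1.02 in dN-VEGF cells (adjusted p = 0.011).

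**Figure D5:**
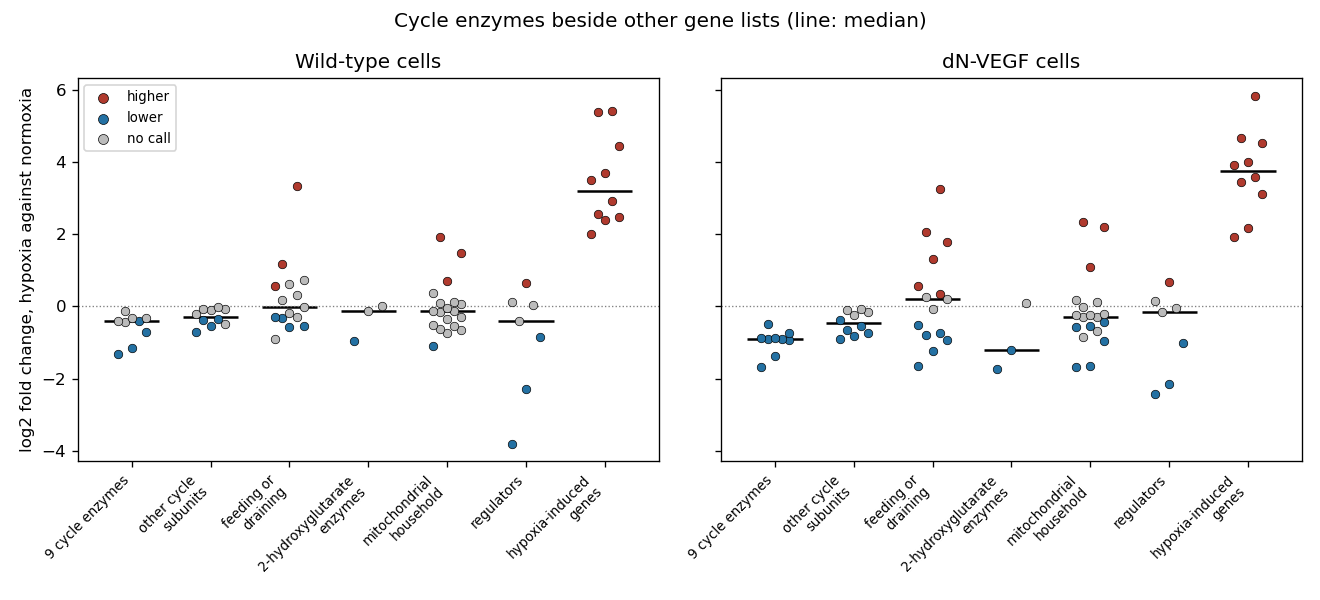
Log2 fold change of hypoxia against normoxia (vertical axis) for the 9 cycle enzymes and 6 other gene lists (horizontal axis), in wild-type and dN-VEGF cells. Points are genes, red where called higher, blue where called lower and grey where not called by edgeR, and lines are medians: the cycle enzymes have medians of -0.42 and -0.90 and no red point.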

How the data were processed

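RNA was sequenced from 12 samples (TruSeq RNA v2, 80-base single reads, NextSeq 550). The authors trimmed reads with Trim Galore and cutadapt 1.10, aligned them to GRCm38.p6 (Ensembl 94) with TopHat2 2.1.0 and Bowtie2 2.2.6, and deposited whole-number read counts per gene from HTSeq 0.6.1, unscaled. Versions are from the methods and the submitters' processing notes.

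Here edgeR 4.0.16 (R 4.3.3, limma 3.58.1) was run on the counts: filterByExpr, TMM scaling, 1 mean per group over 12 samples, quasi-likelihood test, Benjamini-Hochberg adjustment over 14724 genes. CPM use TMM scaling, and log2 CPM a prior count of 2. SEs are of the log2 change. Ratios of raw counts were compared with exact permutation tests. The members, the other lists and the rules were chosen with earlier results of these data known. From each other list, up to 3 genes of lowest adjusted p per comparison were named, with Suclg2, Pdk1 and Ldha added, and for each member the gene of highest Pearson r. Some listed genes that this rule names are not reported here.

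Replicate numbers come from the labels. The deviations of same-numbered samples of the lines correlated at 0.378, 0.498 and 0.355 in normoxia, so the numbers were taken to pair the normoxia samples, and at 0.021, 0.109 and 0.088 in hypoxia.

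Alternatives were DESeq2 1.42.0, RLE factors, total counts, other filters, thresholds, a replicate block, the 6 samples of a comparison, and libraries left out. The block in the 6 normoxia samples was added after seeing the data. Counts per sample had a median of 39309933 in all, and the code was tested on simulated data. The authors' own DESeq2 comparisons were not used here.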

Additional observations from a re-analysis of the deposited data

Results flagged for a closer look

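The hypoxia response of 3 of the listed genes differed between the lines by the interaction test of edgeR. Acly, which splits citrate in the cytosol, stood at 883, 1006 and 844 CPM in wild-type normoxia and 730, 741 and 722 CPM in wild-type hypoxia, and at 854, 970 and 849 CPM and 443, 510 and 437 CPM in dN-VEGF cells. Its response was lower by 0.627 on the log2 scale in dN-VEGF cells (difference -0.627, adjusted p = 0.039), and the difference was -0.72 (adjusted p = 0.0003) without the library labelled wild-type normoxia 2. Vegfa, the edited gene, rose 4.04-fold in wild-type and 12-fold in dN-VEGF cells, a difference of 1.574 on the log2 scale (adjusted p = 0.028). Without that library the rises were 3.33-fold and 11.9-fold, a difference of 1.841 (edgeR adjusted p = 1e-07). Dcn, the fibroblast marker that encodes the matrix proteoglycan decorin, stood at 57.0, 10.8 and 54.8 CPM in wild-type normoxia and 6.13, 5.51 and 5.91 CPM in wild-type hypoxia, and at 47.3, 79.1 and 46.7 CPM and 60.6, 60.4 and 61.7 CPM in dN-VEGF cells. It fell in wild-type cells (log2 -2.80 ± 0.49 SE, edgeR adjusted p = 0.0011), and the value in dN-VEGF cells was 0.08 ± 0.45 (adjusted p = 0.9). The difference was 2.88 (adjusted p = 0.041), and 3.315 (adjusted p = 9.7e-07) without the library labelled wild-type normoxia 2.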

How the results depend on the processing

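The 9 falls in dN-VEGF hypoxia were called under every alternative run except a fold of at least 2, which left 2 (Idh3a and Ogdh), as it did in wild-type cells. In wild-type hypoxia total counts gave 9 calls, where 32.7% of all genes were called lower. This scaling moves the median of all genes to -0.30 (dN-VEGF: -0.41, hypoxia between lines: -0.24, interaction: -0.15). Relative to that median the members' median was -0.35 in wild-type and -0.90 in dN-VEGF cells, against -0.34 and -0.89 with TMM. The share of higher among called genes fell with it from 49.8% to 28.2% in wild-type and from 50.5% to 25.6% in dN-VEGF hypoxia, from 53.5% to 17.1% between lines in hypoxia and from 65.9% to 16.3% in the interaction. Leaving out 1 library gave 4 to 6 calls in wild-type and 9 in dN-VEGF hypoxia, 0 to 7 between lines in normoxia, 0 to 5 between lines in hypoxia and 0 to 7 in the interaction. The highest of the last 3 ranges were without wild-type normoxia 2. The Suclg1 call in normoxia was lost (0 calls) with RLE factors, no filter, the 6 samples alone, a fold of at least 2, an adjusted p below 0.01, the replicate block in the 6 normoxia samples, and without any 1 library other than wild-type normoxia 2. Without both normoxia libraries numbered 2 there were 8 calls in normoxia, 5 in hypoxia and 9 in the interaction, where 27.8% of all genes were called higher, 28.3% lower and 27% lower. Idh3a and Fh1 then reversed in normoxia to 0.305 and 0.176, and to 0.496 and 0.284 without wild-type normoxia 2 alone, where leaving out 1 library gave as little as -0.317 and -0.128. Between lines in hypoxia there were 5 calls with total counts or the 6 samples alone, 2 with at least 10 counts in every sample or the replicate block, and 0 with no filter, a fold of at least 2 or an adjusted p below 0.01. In the fits with 5 or 2 calls, 22.2%, 29.1%, 10.2% and 10.4% of all genes were called lower, in that order. The interaction had 1 call with DESeq2 and 3 with total counts, against 3.47% and 5.13% of all genes called lower. The replicate block over 12 samples gave 4, 9, 1, 2 and 0 calls in the 5 comparisons, and same-numbered samples of a line correlated at -0.018 to 0.065 between oxygen conditions. The ratio of Idh2 to Idh1 between lines was 0.343 without wild-type normoxia 2 and 0.303 without both libraries numbered 2, and Suclg2 to Sucla2 in hypoxia was -0.299 without both (adjusted p = 0.04 each, exact permutation). Leaving out 1 library, the 4 ratio differences ran from -0.001 to 0.154 and 0.187 to 0.343 (Idh2 to Idh1, hypoxia and line) and from -0.262 to -0.128 and -0.108 to 0.025 (Suclg2 to Sucla2). The cause was not tested for any of these changes, apart from the shift that total counts makes by construction.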
